A study of Mus musculus with 24 samples.

Results

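The genes described here are the glutathione, antioxidant and NRF2 target genes, a list of 39 mouse symbols that was matched to the rows of the deposited expression table by the GENCODE vM21 annotation. Of these, 38 were found among the 15323 genes of the table, and Slc7a11, the cystine importer, was not analysed here. The RNA came from left ventricle and from the median liver lobe of mice that combine either of 2 nuclear genomes, NZB and C57BL/6 (BL/6J in the labels), with the mitochondrial DNA (mtDNA) of NZB or C57. Names give the nucleus before the colon and the mtDNA after it. NZB:C57 and BL/6J:NZB are conplastic lines, made by 10 generations of backcrossing onto the mtDNA of the other strain, and NZB:NZB and BL/6J:C57 are the parental strains. All animals were males of 10 weeks, with no drug or diet named, 12 per genotype, and the RNA of 4 animals was pooled, so that each group below is 3 pools of polyadenylated RNA and n = 3 throughout. Values are read counts normalised by the authors, given per pool in the order of the replicate numbers, or as mean ± SD.

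The transcription factor NRF2, the product of Nfe2l2, drives many of these genes, and KEAP1 holds it in check by marking it for degradation until electrophiles or oxidants modify KEAP1. Its targets share a short sequence, the antioxidant response element. They make glutathione, attach it to electrophiles (the glutathione S-transferases), export the conjugates, and renew thioredoxin and NADPH, while peroxidases, peroxiredoxins, catalase and superoxide dismutases remove peroxide and superoxide. Liver is the main organ of glutathione synthesis and of conjugation of foreign compounds, while the heart meets mainly oxidants from its own mitochondria.

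The recovered depth was 3714278 to 12949956 reads per heart library and 7294525 to 34974268 per liver library. Hepatocyte marker sums (19 genes in the table) were 20.3 to 259 in hearts against 159738 to 300724 in livers, and cardiomyocyte marker sums (15 genes) were 40451 to 310892 in hearts against 32.7 to 231 in livers, and each tissue was thus high for its own markers. The NZB:C57 hearts stood apart. Their values summed to 1048700 to 1068800 per library (643486 to 726047 in the other hearts), the 20 highest genes took 33.4% to 34.1% of their reads (11.5% to 14.5% in the other hearts), and their cardiomyocyte marker sums were 301021 to 310892 (40451 to 59060 in the other hearts). Scaling each library to its read total moved many values that rest on these hearts, and such values are given beside the calls they touch. The titles of BL/6J libraries carry a different word from those of NZB libraries, and a difference in handling that followed this word and a difference due to the nucleus cannot be told apart.

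Promoters are shown for the 2 pairs of neighbouring transferase genes on which the results below turn, since the members of each pair are near copies. The windows are RefSeq promoters of GRCm38.p6, 250 bases before to 50 after the start, 5′ to 3′. Gsta1 (chr9:78230419-78230718, plus strand) and Gsta2 (chr9:78347096-78347395, minus strand) were 74.6% identical in a global alignment, and Gstp1 (chr19:4037863-4038162, minus strand) and Gstp2 (chr19:4042172-4042471, minus strand) were 76.42% identical. Capitals mark the 68 bases of Gsta2 that did not match Gsta1 and the 57 bases of Gstp2 that did not match Gstp1.
Gsta1: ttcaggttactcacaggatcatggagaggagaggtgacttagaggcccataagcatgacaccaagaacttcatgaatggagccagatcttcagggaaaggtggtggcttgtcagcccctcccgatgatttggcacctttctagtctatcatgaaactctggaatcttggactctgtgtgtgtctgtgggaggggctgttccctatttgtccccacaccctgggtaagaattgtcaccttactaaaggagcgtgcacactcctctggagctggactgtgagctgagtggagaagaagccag
Gsta2: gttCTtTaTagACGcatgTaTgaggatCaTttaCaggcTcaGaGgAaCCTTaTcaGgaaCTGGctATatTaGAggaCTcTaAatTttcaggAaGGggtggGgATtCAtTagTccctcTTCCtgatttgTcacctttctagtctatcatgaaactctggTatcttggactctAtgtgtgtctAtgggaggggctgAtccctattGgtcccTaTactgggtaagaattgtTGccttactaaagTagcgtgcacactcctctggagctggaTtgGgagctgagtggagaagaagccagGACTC
Gstp1: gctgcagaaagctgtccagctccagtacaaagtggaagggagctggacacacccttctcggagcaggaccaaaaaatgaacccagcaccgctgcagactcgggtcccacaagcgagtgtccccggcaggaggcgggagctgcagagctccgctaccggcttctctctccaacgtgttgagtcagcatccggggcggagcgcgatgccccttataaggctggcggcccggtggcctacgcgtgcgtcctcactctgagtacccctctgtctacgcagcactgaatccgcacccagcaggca
Gstp2: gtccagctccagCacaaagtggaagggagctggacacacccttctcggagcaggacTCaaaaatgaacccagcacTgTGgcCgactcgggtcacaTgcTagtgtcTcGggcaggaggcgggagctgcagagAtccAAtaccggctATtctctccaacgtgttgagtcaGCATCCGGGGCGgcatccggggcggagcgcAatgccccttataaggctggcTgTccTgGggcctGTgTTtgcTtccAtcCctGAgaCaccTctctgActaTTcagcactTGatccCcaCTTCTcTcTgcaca
The transcripts are near copies as well. Of the 31-base words of Gsta1, 92.9% also occur in another gene, against 60.7% for Gsta2, 60.3% for Gstp2, 38.9% for Gpx4, 38.5% for Gstp1, 37.7% for Gstm3 and 28.8% for Gstm1, so the split of reads between these genes and their copies is uncertain. Sums are given for Gstp1 with Gstp2, Gsta1 with Gsta2 and the mu class. The genes that share most with Gsta1 (Gm3776, 80.3% of its words), Gpx4 (Gpx4-ps2, 38.7%), Gstm3 (Gm8834, 24.7%) and Gstm1 (Gstm2-ps1, 22.6%) were not analysed here, so these sums do not settle the split for those genes. Keap1, Gclm, Gss, G6pdx and Prdx2 overlap an antisense exon of another gene, and no use of strand in counting is stated.

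The core of the antioxidant response element, TGACNNNGC, was searched on both strands of the RefSeq windows. It was in 12.39% of all 32851 windows and in 11 of the 44 windows of the members. By gene, 10 of the 32 members with a window held it (13.99% of all genes): Nfe2l2, Gclm, Txnrd1, Srxn1, G6pdx, Pgd, Abcc4, Gsta3, Prdx1 and Sod1. A match is a description of the letters and not a bound site. Gsta3, an alpha-class transferase of liver, and Srxn1, the sulfiredoxin that repairs over-oxidised peroxiredoxins, are shown as examples. Both held the motif and were called lower with the NZB nucleus in some comparisons below. Of the others with the motif, Nfe2l2, Txnrd1 and Sod1 were called lower in some of these comparisons, and G6pdx and Abcc4 higher. Gclm, Pgd and Prdx1 were called in none of them. The capitals mark the match, which is on the strand shown in Gsta3 (chr1:21240335-21240634, plus strand) and on the opposite strand in Srxn1 (chr2:152105274-152105573, plus strand).
Gsta3: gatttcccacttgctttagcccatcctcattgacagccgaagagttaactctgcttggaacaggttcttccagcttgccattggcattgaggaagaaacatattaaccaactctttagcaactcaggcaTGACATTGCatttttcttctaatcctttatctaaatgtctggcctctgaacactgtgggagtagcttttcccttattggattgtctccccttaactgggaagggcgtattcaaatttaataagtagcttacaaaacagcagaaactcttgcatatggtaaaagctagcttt
Srxn1: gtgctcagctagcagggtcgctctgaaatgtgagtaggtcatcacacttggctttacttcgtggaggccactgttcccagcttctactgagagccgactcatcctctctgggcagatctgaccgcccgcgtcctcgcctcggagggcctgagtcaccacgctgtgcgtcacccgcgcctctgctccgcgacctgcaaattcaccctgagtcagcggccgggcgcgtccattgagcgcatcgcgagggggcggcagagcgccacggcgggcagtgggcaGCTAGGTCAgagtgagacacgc

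Heart expressed most of these genes below the liver level in every genotype, while Gpx3, Nqo1, Abcc4, Prdx2 and Gpx4 were higher in heart in all 4. G6pdx, Sod3 and Gstm2 were also called higher in heart in NZB:C57, and Gstp2 in NZB:NZB. Of the 38 members, 36 differed between heart and liver in NZB:C57 by limma with Benjamini-Hochberg adjusted p under 0.05 over all genes tested. Of these, 8 were higher and 28 lower in heart, on a background of 79.5% of genes (39.6% higher, 39.9% lower). In NZB:NZB 36 differed (6 higher, 30 lower; background 75.1%, with 37.8% higher and 37.4% lower). In BL/6J:NZB 36 differed (5 higher, 31 lower; background 75.9%, with 37.5% higher and 38.4% lower). In BL/6J:C57 35 differed (5 higher, 30 lower; background 77.0%, with 37.3% higher and 39.8% lower). The median log2 fold change over the members was -2.15, -2.27, -2.18 and -2.70 in NZB:C57, NZB:NZB, BL/6J:NZB and BL/6J:C57, beside -0.02, -0.01, 0.00 and -0.03 over all genes. Scaled to library totals, 8 were higher and 25 lower in NZB:C57 (background 49.6% higher, 28.5% lower), where Keap1, Pgd and Nfe2l2 lost their calls. The scaled split was 9 and 24 in NZB:NZB (64.2% and 18.5%), 9 and 25 in BL/6J:NZB (64.1% and 18.9%) and 10 and 25 in BL/6J:C57 (63.4% and 19.0%). Gsta2 and Gstm3 entered this test through the livers alone; of the other 36 members, 26, 28, 29 and 28 were lower as deposited in NZB:C57, NZB:NZB, BL/6J:NZB and BL/6J:C57. In pooled tissue RNA, fewer cells of a type and less RNA per cell cannot be told apart.

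**Figure D1:**
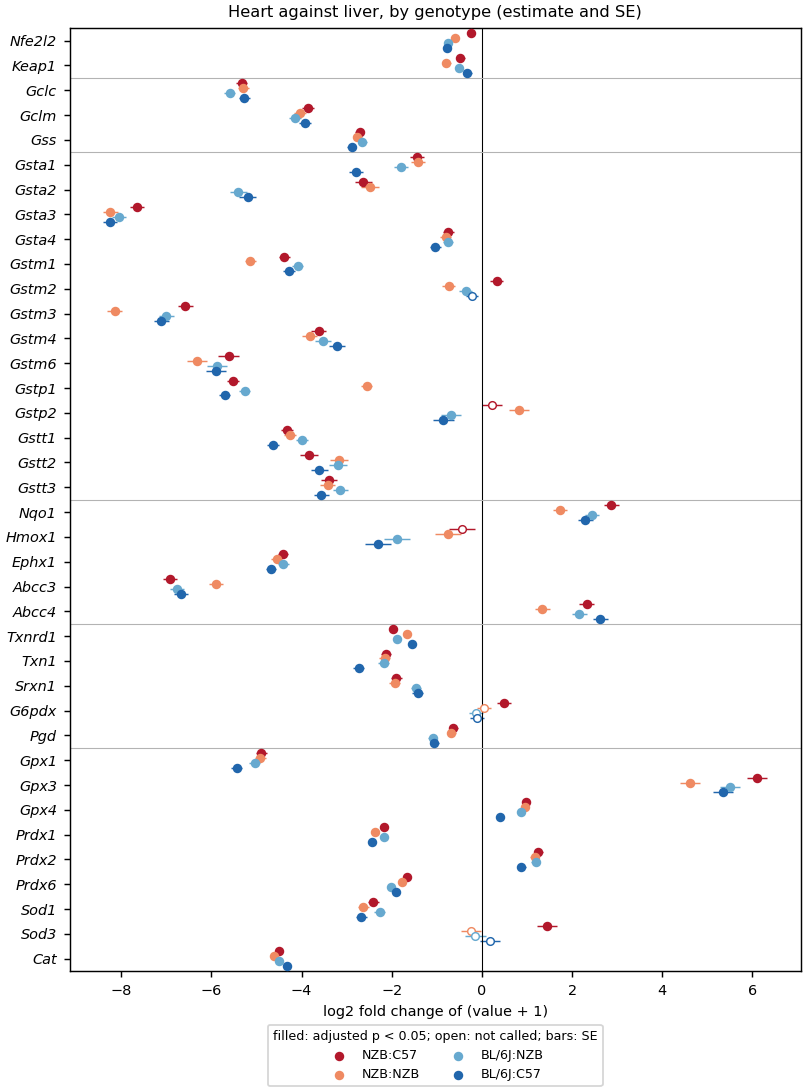
Log2 fold change of heart against liver on log2(value + 1) for each of the 38 members (rows, grouped by role), in NZB:C57, NZB:NZB, BL/6J:NZB and BL/6J:C57 (colours), with the standard error as bars. Most points lie left of 0 (lower in heart); Gpx3, Nqo1, Abcc4, Prdx2 and Gpx4 lie right of 0 in all 4 genotypes, and scaling to library totals turns the sign of Nfe2l2 in all 4 and of Keap1, Gsta4, Gstm2, Pgd and Hmox1 in some.

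All 3 genes of glutathione synthesis were lower in heart. Gclc, the catalytic subunit of the rate-limiting glutamate-cysteine ligase, ran from 10.9 through a median of 13.6 to 15.5 in the 12 hearts, against 480 through 582 to 720 in the 12 livers. Its partner Gclm, the modifier subunit, had 14.9, 20.4 and 25.1 (lowest, median, highest) in hearts against 309, 332 and 372 in livers, and Gss, glutathione synthetase, had 11.5, 12.7 and 13.5 in hearts against 79.3, 88.0 and 116 in livers. No heart reached any liver for these genes, with log2 fold changes of -5.59 to -5.27 for Gclc, -4.15 to -3.85 for Gclm and -2.89 to -2.65 for Gss over the 4 genotypes.

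Among the transferases, Gsta3 had 3.42 to 7.38 in hearts against 1151 to 2245 in livers, with log2 fold changes of -8.25 to -7.64. Gstm1, a mu-class transferase, had 78.4, 126 and 172 (lowest, median, highest) in hearts against 2216, 2725 and 3521 in livers, and scaling to library totals did not turn its direction. Gstm3 and Gsta2 were nearly silent in heart: the 3 NZB:NZB hearts held 0 reads of either gene, which allows up to 0.238 to 0.522 per library (3 reads, counting error only), at least 681-fold lower than in NZB:NZB livers for Gstm3 and at least 11.0-fold lower for Gsta2. Gstm2 was the exception of its class, at 48.5 to 80.1 in hearts against 49.1 to 102 in livers. Its log2 fold change was +0.33 in NZB:C57, -0.74 in NZB:NZB and -0.36 in BL/6J:NZB. Scaled to library totals, it turned positive in NZB:NZB and BL/6J:NZB (+0.53 in BL/6J:NZB) and stayed positive in NZB:C57. The sign in NZB:NZB and BL/6J:NZB thus depends on the scaling. In NZB:C57 the call was lost without NZB:C57 heart replicate 1, 2 or 3 or liver replicate 1 or 3 (adjusted p = 0.0562 to 0.224, limma), and in BL/6J:NZB without heart replicate 1 or 2 or liver replicate 3 (adjusted p = 0.0791 to 0.126).

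The members higher in heart differ in what they do. Gpx3, the secreted plasma glutathione peroxidase, had 123, 166 and 268 (lowest, median, highest) in hearts against 1.81, 2.94 and 6.85 in livers. Nqo1, a quinone reductase and classic NRF2 target, had 33.4, 41.5 and 56.7 in hearts against 5.41, 7.52 and 12.4 in livers. Gpx4, which reduces lipid peroxides in membranes, had 328, 389 and 474 in hearts against 177, 214 and 329 in livers. Within each of the 4 genotypes no heart overlapped a liver for these 3 genes, although the highest Gpx4 liver, a BL/6J:C57 library, lay level with the lowest Gpx4 heart, an NZB:NZB library. Prdx2, a peroxiredoxin abundant in red cells, had 230 to 307 in hearts against 100 to 164 in livers, beside erythroid marker sums of 2864 to 17916 in hearts against 482 to 1416 in livers, whose part in the result was not tested. Abcc4, an exporter of organic anions, had 10.8 to 18.2 in hearts against 1.51 to 4.62 in livers.

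Sod3 and G6pdx were called higher in heart in NZB:C57 alone, and Gstp2 in NZB:NZB alone, as deposited. Of them, only Sod3 was called in the test of NZB:C57 against NZB:NZB, heart minus liver, given below. Sod3, the secreted superoxide dismutase of the extracellular matrix, had 56.0, 64.0 and 61.6 in NZB:C57 hearts against 27.7, 19.99 and 18.1 in NZB:C57 livers (+1.45, adjusted p = 3.6e-06, limma), and was called in no other genotype as deposited. G6pdx, the first enzyme of the pentose phosphate pathway, had 8.57, 9.24 and 9.93 in NZB:C57 hearts against 5.49, 6.60 and 6.75 in NZB:C57 livers (+0.50, adjusted p = 0.00684; +0.84 scaled to library totals). Gstp2, the near copy of Gstp1, had 1.67, 2.26 and 1.86 in NZB:NZB hearts against 0.731, 0.688 and 0.553 in NZB:NZB livers (+0.82, adjusted p = 0.00268; +1.38 scaled). It was lower in heart as deposited in BL/6J:NZB (-0.69) and BL/6J:C57 (-0.86), but at -0.02 and -0.07 without a call when scaled.

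The regulators differed by less than most members. Nfe2l2 (chr2:75675513-75704641, minus strand, GRCm38) had 55.8, 53.7 and 57.2 in NZB:C57 hearts against 66.4, 66.8 and 64.0 in livers, and 61.9, 57.2 and 56.0 in BL/6J:C57 hearts against 106, 93.2 and 101 in livers. Keap1 (chr9:21229730-21239361, minus strand) had 33.2 to 51.7 in hearts against 52.6 to 68.7 in livers. Both were called lower in heart in all 4 genotypes as deposited (Nfe2l2 -0.76 to -0.24, Keap1 -0.79 to -0.33), but scaled to library totals the median of all genes moved to between 0.33 and 0.74, Nfe2l2 turned to between 0.13 and 0.26 in the 4 genotypes, and Keap1 turned in all but NZB:C57. Relative to that median both stayed lower, but taking it off largely brings back the scale as deposited and is no separate test. The Nfe2l2 call in NZB:C57 was also lost with median-of-ratios size factors (-0.13, adjusted p = 0.162, limma) and by DESeq2 (adjusted p = 0.204).

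Per kilobase of exon, the order of the levels differed between tissues. In hearts Gpx4 led in every genotype, between 209 ± 17.8 normalised counts per kb in NZB:NZB and 267 ± 12.2 in BL/6J:NZB. Behind it in BL/6J:NZB hearts stood Gstm1 (105 ± 14.8 per kb), Gpx3 (93.5 ± 3.85), Prdx1 (92.5 ± 5.65) and Prdx2 (91.0 ± 9.09), which lay within their spread of each other. In livers Gstm1 led in NZB:NZB, at 2042 ± 210 per kb with Cat at 1401 ± 51.9. In NZB:C57 livers Gstm1 (1717 ± 241 per kb) and Cat (1417 ± 145) lay within their spread of each other. In BL/6J:C57 livers Gstm1 (2015 ± 326 per kb), Gstp1 (1809 ± 389) and Cat (1763 ± 167) lay within their spread of each other. In BL/6J:NZB livers Gstm1 had 1777 ± 105 per kb and did not differ from Cat (1782 ± 25.2) beyond the spread. Gstp1 stood at 549 ± 17.0 per kb in NZB:C57 livers, behind Gstm1, Cat and Gpx1, and outside the first 6 in NZB:NZB livers, at 150 ± 26.5 per kb, against 1439 ± 50.8 in BL/6J:NZB livers. Gclc was at 3.45 to 3.75 per kb in hearts against 144 to 179 per kb in livers (means per genotype).

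More members were lower than higher with the NZB than with the BL/6J nucleus in each of the 4 comparisons, as deposited and scaled to library totals. In livers with NZB mtDNA, 12 of the 38 members differed between NZB:NZB and BL/6J:NZB (2 higher, 10 lower; background 24.9% of 13159 genes, with 12.9% higher and 11.9% lower). With libraries scaled to their totals, 3 were higher and 7 lower (background 18.9% and 8.46%). On C57 mtDNA 17 differed between NZB:C57 and BL/6J:C57 (1 higher, 16 lower; background 27.9%, with 13.1% higher and 14.8% lower). The groups did not overlap for any called member. The share of all called genes without overlap was not counted, so this is not a result about the members beyond their calls. The median log2 fold change over the members was -0.13 and -0.33, beside -0.01 and -0.03 over all genes. In hearts 15 of 36 tested members differed between NZB:NZB and BL/6J:NZB (3 higher, 12 lower; background 29.1% of 13803 genes, with 15.5% higher and 13.6% lower). Between NZB:C57 and BL/6J:C57 hearts 14 differed (5 higher, 9 lower), on a background of 35.2%, with 22.1% higher and 13.1% lower. Scaled to library totals, 1 was higher and 17 lower in NZB:C57 against BL/6J:C57 livers (background 12.1% and 16.2%). In hearts the scaled split was 4 higher and 10 lower for NZB:NZB against BL/6J:NZB (22.5% and 10.3%). It was 1 higher and 28 lower for NZB:C57 against BL/6J:C57 hearts, where most of all genes were also lower (11.7% and 63.0%). Scaled values of single members in this heart comparison, given below, carry this shift of all genes. The counts as deposited hold Gstp2 in liver and Gsta1 in heart, which passed the filter on low values through the BL/6J-nuclear libraries. Without them the lower calls were 9 in NZB:NZB against BL/6J:NZB livers, 15 in NZB:C57 against BL/6J:C57 livers, 11 in NZB:NZB against BL/6J:NZB hearts and 8 in NZB:C57 against BL/6J:C57 hearts. These 4 comparisons share no library.

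**Figure D2:**
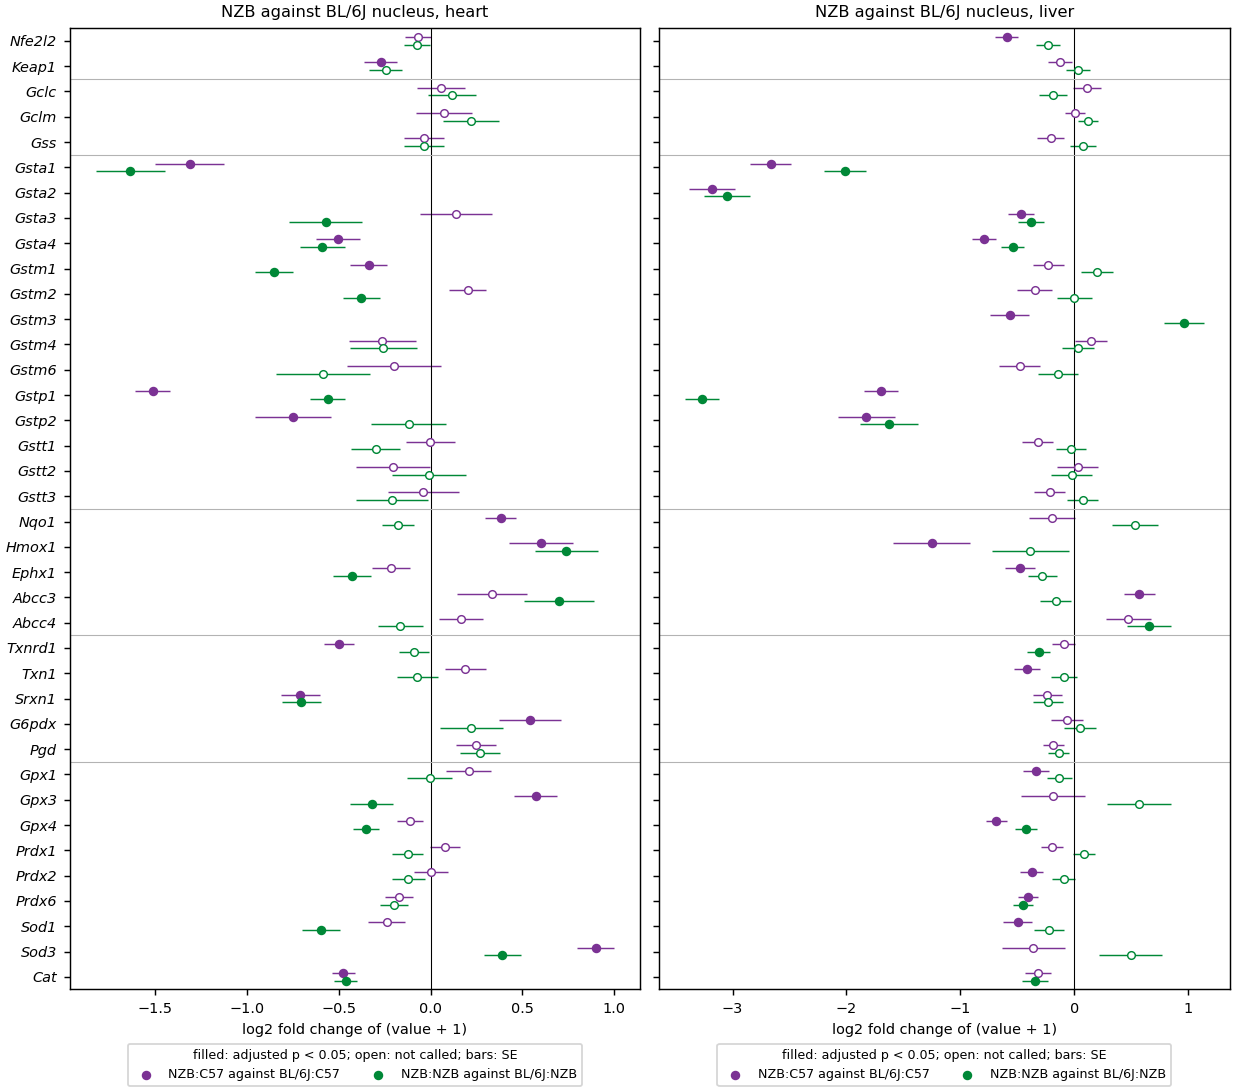
Log2 fold change of NZB against BL/6J nucleus on log2(value + 1) for each tested member in heart (left) and liver (right), for NZB:C57 against BL/6J:C57 and NZB:NZB against BL/6J:NZB, with standard errors. Gsta4 and Gstp1 lie left of 0 with filled points in both colours and both tissues; in heart, scaling to library totals turns the sign of Nqo1 and Gpx3 for NZB:C57 against BL/6J:C57.

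Gsta4 and Gstp1 were lower with the NZB nucleus in all 4 comparisons, beside 3.08% of the 12063 genes tested in all of them. No member was higher in all 4, beside 3.12% of those genes. Gstp1, the pi-class transferase, had 186, 265 and 246 in NZB:NZB livers against 2287, 2258 and 2139 in BL/6J:NZB livers. On C57 mtDNA Gstp1 had 858, 871 and 820 in NZB:C57 livers against 3488, 2550 and 2365 in BL/6J:C57 livers. All NZB-nuclear livers lay below all BL/6J-nuclear livers, with a log2 fold change of -3.27 ± 0.15 (estimate ± SE, adjusted p = 1.16e-09, limma) on NZB mtDNA and -1.70 ± 0.15 (adjusted p = 1.27e-06) on C57 mtDNA. In hearts Gstp1 had 41.5, 37.8 and 35.8 in NZB:NZB against 51.3, 56.1 and 64.3 in BL/6J:NZB. On C57 mtDNA hearts had 17.4, 17.99 and 17.2 in NZB:C57 against 54.3, 47.2 and 54.7 in BL/6J:C57, and neither pair overlapped (-0.56 ± 0.09, adjusted p = 0.000262, and -1.51 ± 0.09, adjusted p = 8.01e-10). Its near copy Gstp2 was far lower, at 0.731, 0.688 and 0.553 in NZB:NZB livers against 4.38, 4.55 and 3.46 in BL/6J:NZB livers. On C57 mtDNA Gstp2 had 0.784, 1.16 and 1.32 in NZB:C57 livers against 7.22, 9.65 and 3.54 in BL/6J:C57 livers. The sum of both copies was 233 ± 40.9 in NZB:NZB livers against 2232 ± 79.2 in BL/6J:NZB livers, and 851 ± 26.2 in NZB:C57 livers against 2808 ± 603 in BL/6J:C57 livers, so the direction does not rest on how reads were split between them. Pi-class transferases are known to be higher in male than in female mouse liver. Sums over 15 genes with higher levels in male than in female liver were 3775 to 5440 in NZB:NZB livers against 62782 to 99473 in BL/6J:NZB livers, and 10450 to 13942 in NZB:C57 livers against 61069 to 90693 in BL/6J:C57 livers. For 15 genes higher in female liver the sums were 1571 to 2093 in NZB:NZB livers against 93.6 to 99.1 in BL/6J:NZB livers. They were 122 to 397 in NZB:C57 livers against 77.9 to 112 in BL/6J:C57 livers. The part of both lists in the Gstp1 result was not tested.

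The alpha-class genes Gsta1 and Gsta2 were lower in both liver comparisons. Gsta2 had 4.29, 5.60 and 3.98 in NZB:NZB livers against 40.4, 44.1 and 51.8 in BL/6J:NZB livers. On C57 mtDNA Gsta2 had 7.37, 5.43 and 3.79 in NZB:C57 livers against 69.1, 45.5 and 58.2 in BL/6J:C57 livers. Gsta1 had 2.19, 2.56 and 1.88 in NZB:NZB livers against 13.2, 13.2 and 9.64 in BL/6J:NZB livers. On C57 mtDNA Gsta1 had 2.59, 2.52 and 1.81 in NZB:C57 livers against 15.3, 22.8 and 22.4 in BL/6J:C57 livers. Every NZB-nuclear liver was below every BL/6J-nuclear liver for both genes, with log2 fold changes of -3.05 ± 0.20 for Gsta2 and -2.01 ± 0.18 for Gsta1 on NZB mtDNA (adjusted p = 7.82e-08 and 2.05e-06, limma) and -3.18 ± 0.20 and -2.67 ± 0.18 on C57 mtDNA (adjusted p = 4.95e-08 and 1.07e-07). Summed, Gsta1 and Gsta2 had 6.84 ± 1.19 in NZB:NZB livers against 57.4 ± 3.93 in BL/6J:NZB livers, and 7.84 ± 2.18 in NZB:C57 livers against 77.8 ± 8.42 in BL/6J:C57 livers. In heart Gsta1 was near the limit of detection. NZB:NZB hearts held 5 reads in all against 76 in BL/6J:NZB hearts, a ratio of normalised levels of 0.0731 (exact 95% interval 0.0231 to 0.178, counting error only), and NZB:C57 hearts held 6 against 44 in BL/6J:C57 hearts, a ratio of 0.109 (0.0379 to 0.256). Gsta1 passed the filter on low values in heart through the BL/6J-nuclear hearts alone.

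**Figure D3:**
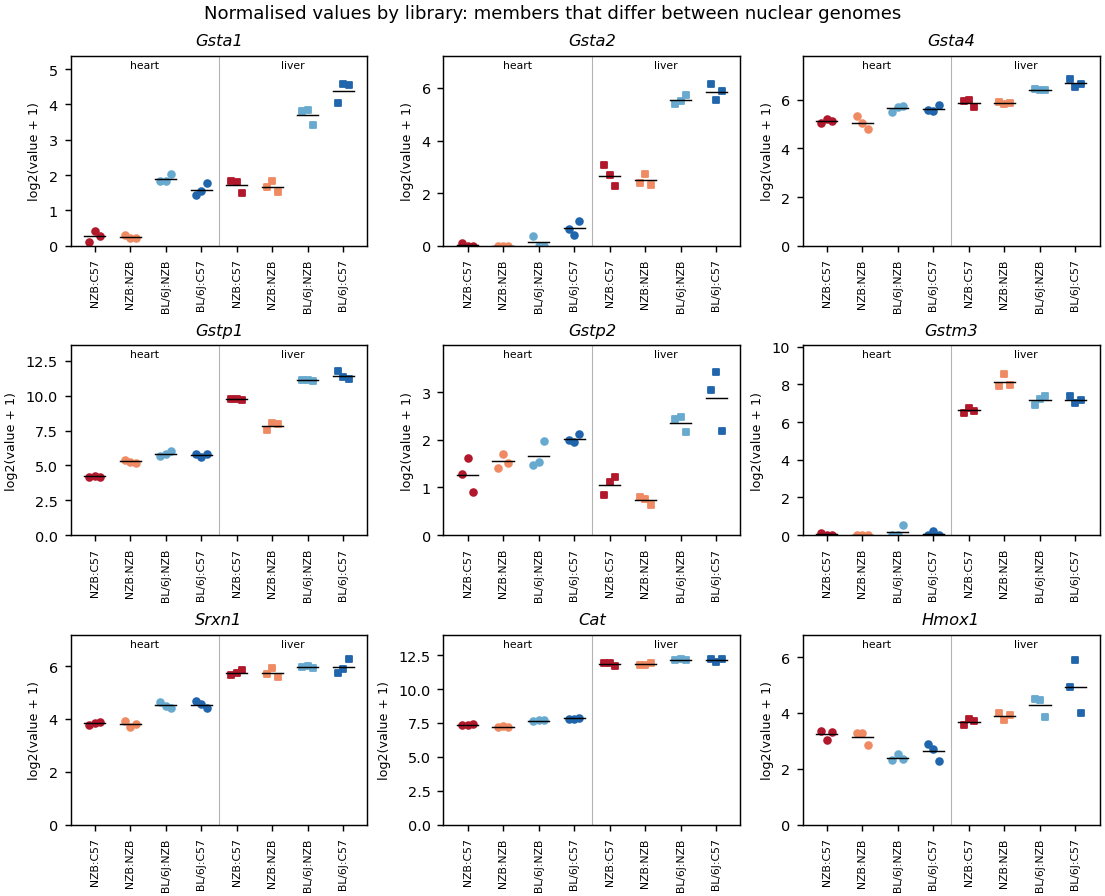
Log2(value + 1) of 9 members in each of the 24 libraries, hearts as circles on the left of each panel and livers as squares on the right, with the genotypes NZB:C57, NZB:NZB, BL/6J:NZB and BL/6J:C57 in that order; black lines are means of 3 pools. The NZB-nuclear livers lie below the BL/6J-nuclear livers for Gsta1, Gsta2, Gsta4, Gstp1 and Gstp2, and Gsta2 and Gstm3 lie below 1 in all hearts.

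Gsta4, which conjugates the lipid peroxidation product 4-hydroxynonenal, moved by less but in both tissues. It had 59.6, 54.7 and 57.3 in NZB:NZB livers against 84.6, 82.2 and 84.1 in BL/6J:NZB livers. On C57 mtDNA it had 60.3, 62.3 and 51.0 in NZB:C57 livers against 114, 89.6 and 99.8 in BL/6J:C57 livers. In hearts it had 39.6, 32.4 and 26.4 in NZB:NZB against 43.8, 51.6 and 52.7 in BL/6J:NZB, and 31.8, 36.4 and 33.8 in NZB:C57 against 46.5, 45.8 and 54.0 in BL/6J:C57. The groups did not overlap in any of the 4 comparisons, with log2 fold changes of -0.54 and -0.79 in livers and -0.59 and -0.50 in hearts (the last -1.08 scaled to library totals). Gsta3 was lower in both liver comparisons (-0.38 and -0.47) and in hearts with NZB mtDNA (-0.57, 3.42, 4.52 and 5.24 in NZB:NZB against 7.30, 6.19 and 7.38 in BL/6J:NZB). Its call with NZB mtDNA was lost in liver without BL/6J:NZB replicate 1 or 2 or NZB:NZB replicate 1 or 3 (adjusted p = 0.0674 to 0.0876, limma), and in heart without any BL/6J:NZB replicate or without NZB:NZB replicate 1 or 2 (adjusted p = 0.0511 to 0.14).

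The mu class did not move as a block. Gstm3 had 237, 376 and 249 in NZB:NZB livers against 120, 148 and 167 in BL/6J:NZB livers, but 89.4, 108 and 95.2 in NZB:C57 livers against 167, 127 and 143 in BL/6J:C57 livers. It was thus higher with the NZB nucleus on NZB mtDNA (+0.96 ± 0.17, adjusted p = 0.00101, limma) and lower on C57 mtDNA (-0.57 ± 0.17, adjusted p = 0.0256); the call on C57 mtDNA was lost without BL/6J:C57 replicate 1 or NZB:C57 replicate 1 or 3 (adjusted p = 0.0638 to 0.0963). Gstm1 differed in heart, with 87.0, 87.7 and 78.4 in NZB:NZB against 130, 160 and 172 in BL/6J:NZB (-0.85 ± 0.10, adjusted p = 6.36e-06). On C57 mtDNA it had 119, 123 and 115 in NZB:C57 against 171, 133 and 151 in BL/6J:C57 (-0.34 ± 0.10, adjusted p = 0.0145, or 0.0904 without BL/6J:C57 replicate 1; -0.92 scaled to library totals). The sum of Gstm1, Gstm2, Gstm3, Gstm4 and Gstm6 was 144 ± 8.93 in NZB:NZB hearts against 233 ± 31.9 in BL/6J:NZB hearts, and 203 ± 1.83 in NZB:C57 hearts against 228, with a range of 202.0 to 252, in BL/6J:C57 hearts. In livers Gstm1 was not called, at 3008 ± 309 in NZB:NZB against 2617 ± 154 in BL/6J:NZB and 2529 ± 355 in NZB:C57 against 2969 ± 479 in BL/6J:C57. The liver sum of the same 5 genes, most of it Gstm1, was 3645 ± 420.1 in NZB:NZB against 3125 ± 208 in BL/6J:NZB, and 2915 ± 417 in NZB:C57 against 3453 ± 531 in BL/6J:C57. Gstm2 was lower in NZB:NZB than in BL/6J:NZB hearts (-0.38, adjusted p = 0.00962, or 0.0625 without BL/6J:NZB replicate 3). Gstm4, Gstm6, Gstt1, Gstt2 and Gstt3 were called in none of the 4 comparisons, and neither were Gclc, Gclm, Gss, Pgd (an NADPH-supplying enzyme of the pentose phosphate pathway) and Prdx1.

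Enzymes that remove peroxide and superoxide were lower where they were called in liver. Gpx4 had 178, 184 and 198 in NZB:NZB livers against 250, 231 and 271 in BL/6J:NZB livers. On C57 mtDNA Gpx4 had 197, 194 and 177 in NZB:C57 livers against 329, 316 and 272 in BL/6J:C57 livers (-0.42 and -0.68, adjusted p = 0.00523 and 0.000122, limma). Prdx6, a peroxiredoxin that uses glutathione, had 455, 471 and 461 in NZB:NZB livers against 630, 613 and 651 in BL/6J:NZB livers. On C57 mtDNA Prdx6 had 464, 492 and 427 in NZB:C57 livers against 662, 555 and 616 in BL/6J:C57 livers (-0.45 and -0.40). None of these groups overlapped. With C57 mtDNA, Sod1, the copper-zinc superoxide dismutase (-0.50), Prdx2 (-0.38) and Gpx1, the main cytosolic glutathione peroxidase (-0.34), were also lower in NZB:C57 livers. With only the 6 libraries compared in the fit, the calls of Sod1 (adjusted p = 0.0566, limma), Prdx2 (0.0651) and Gpx1 (0.114) were lost. The Prdx2 call was also lost without NZB:C57 replicate 3 (adjusted p = 0.0539), and the Gpx1 call without BL/6J:C57 replicate 1 or 2 or any NZB:C57 replicate (adjusted p = 0.0721 to 0.146). Cat, catalase, had 3598, 3569 and 3817 in NZB:NZB livers against 4590, 4722 and 4658 in BL/6J:NZB livers, a call (-0.35, adjusted p = 0.0386) that was lost without any 1 of the 6 libraries (0.0668 to 0.114) and with the replicate number as a block (0.0594).

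In hearts Cat had 146, 154 and 145 in NZB:NZB hearts against 196, 212 and 206 in BL/6J:NZB hearts. On C57 mtDNA Cat had 160, 162 and 167 in NZB:C57 hearts against 221, 224 and 237 in BL/6J:C57 hearts. All NZB-nuclear hearts were below all BL/6J-nuclear hearts (-0.46 ± 0.06 and -0.48 ± 0.06, adjusted p = 2.64e-05 and 8.38e-06, limma; -1.06 on C57 mtDNA scaled to library totals). Sod1 and Gpx4 were lower in NZB:NZB than in BL/6J:NZB hearts (-0.60 and -0.35), with 144, 141 and 110 in NZB:NZB against 183, 191 and 222 in BL/6J:NZB for Sod1. Gpx4 had 388, 367 and 328 in NZB:NZB against 436, 474 and 470 in BL/6J:NZB hearts. Sod3 went the other way, with 36.9, 34.6 and 35.1 in NZB:NZB hearts against 30.6, 25.9 and 24.6 in BL/6J:NZB hearts (+0.39 ± 0.10, adjusted p = 0.00758). On C57 mtDNA Sod3 had 56.0, 64.0 and 61.6 in NZB:C57 hearts against 32.8, 28.0 and 35.5 in BL/6J:C57 hearts (+0.90 ± 0.10, adjusted p = 1.33e-06), but +0.33 when scaled to library totals (adjusted p = 0.00902). Sums over 11 fibroblast and stellate markers were 2054 to 2374 in NZB:NZB hearts against 871 to 919 in BL/6J:NZB hearts, and 2638 to 2916 in NZB:C57 hearts against 871 to 909 in BL/6J:C57 hearts, and their part in the Sod3 result was not tested. Gpx3 was lower in NZB:NZB than in BL/6J:NZB hearts (-0.32, adjusted p = 0.0494), a call lost without any BL/6J:NZB replicate or without NZB:NZB replicate 1 or 3 (0.0634 to 0.154), and higher in NZB:C57 than in BL/6J:C57 hearts as deposited (+0.57, adjusted p = 0.000826), though not when scaled to library totals (-0.01).

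Among the NRF2 axis genes, Nfe2l2 had 66.4, 66.8 and 64.0 in NZB:C57 livers against 106, 93.2 and 101 in BL/6J:C57 livers (-0.59 ± 0.10, adjusted p = 0.000704, limma). It had 81.6, 90.9 and 67.2 in NZB:NZB livers against 91.8, 95.5 and 92.3 in BL/6J:NZB livers, where it was not called. Keap1 had 42.6, 39.1 and 39.3 in NZB:C57 hearts against 50.9, 44.5 and 51.7 in BL/6J:C57 hearts (-0.27, adjusted p = 0.0243; -0.85 scaled to library totals). This Keap1 call was lost without BL/6J:C57 replicate 1 or 3 or NZB:C57 replicate 2 or 3 (0.0695 to 0.0971). Srxn1 had 13.98, 12.01 and 13.0 in NZB:NZB hearts against 23.9, 21.4 and 20.2 in BL/6J:NZB hearts. On C57 mtDNA Srxn1 had 12.6, 13.5 and 13.7 in NZB:C57 hearts against 24.6, 22.4 and 20.1 in BL/6J:C57 hearts. It was lower in every NZB-nuclear heart (-0.70 ± 0.11 and -0.71 ± 0.11, adjusted p = 9.46e-05 and 4.16e-05; -1.28 on C57 mtDNA scaled to library totals), while in livers it was not called (52.8 ± 6.50 in NZB:NZB against 61.9 ± 1.36 in BL/6J:NZB, and 52.2 ± 3.55 in NZB:C57 against 62.5 ± 12.6 in BL/6J:C57). Txnrd1, cytosolic thioredoxin reductase, had 47.4, 46.5 and 45.9 in NZB:C57 hearts against 67.6, 66.1 and 65.4 in BL/6J:C57 hearts (-0.50 ± 0.08, adjusted p = 9.47e-05; -1.08 scaled to library totals). It was also called lower in NZB:NZB than in BL/6J:NZB livers (-0.31, adjusted p = 0.0384), a call lost without any 1 of the 6 libraries (0.0562 to 0.142). Txn1, thioredoxin, was lower in NZB:C57 than in BL/6J:C57 livers (-0.42, adjusted p = 0.0151), a call lost with only the 6 libraries compared in the fit (adjusted p = 0.0689, limma).

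Hmox1, the heme oxygenase induced by heme and oxidants, was higher with the NZB nucleus in both heart comparisons as deposited, though on C57 mtDNA the difference was 0.09 when scaled to library totals, and it was lower in livers on C57 mtDNA. It had 8.74, 8.70 and 6.25 in NZB:NZB hearts against 4.02, 4.76 and 4.08 in BL/6J:NZB hearts (+0.74 ± 0.17, adjusted p = 0.00394, limma). On C57 mtDNA Hmox1 had 9.25, 7.18 and 8.83 in NZB:C57 hearts against 6.38, 5.56 and 3.88 in BL/6J:C57 hearts (+0.60 ± 0.17, adjusted p = 0.0116; 0.0568 by DESeq2). Macrophage marker sums (12 genes, Hmox1 not among them) were 227 to 253 in NZB:NZB hearts against 146 to 179 in BL/6J:NZB hearts, and 261 to 312 in NZB:C57 hearts against 168 to 176 in BL/6J:C57 hearts, and their part in the Hmox1 result was not tested. In livers it had 10.7, 12.6 and 12.2 in NZB:C57 against 29.6, 58.1 and 14.8 in BL/6J:C57 (-1.25 ± 0.34, adjusted p = 0.0144), where the BL/6J:C57 pools had a coefficient of variation of 64.5% and the call was lost with only the 6 libraries compared in the fit (0.0529). Leaving out 1 of these 6 livers moved the liver estimate between -1.73 and -0.78, and the heart call with C57 mtDNA was lost without BL/6J:C57 replicate 3 or NZB:C57 replicate 1 (adjusted p = 0.0735 and 0.0511). The difference between the tissues was not tested. Abcc3, an exporter of glutathione and glucuronide conjugates, had 483, 503 and 415 in NZB:C57 livers against 294, 284 and 367 in BL/6J:C57 livers (+0.57, adjusted p = 0.00776). In hearts it had 5.08, 4.52 and 3.89 in NZB:NZB against 3.13, 1.59 and 2.58 in BL/6J:NZB (+0.70, adjusted p = 0.0104, or 0.0672 without BL/6J:NZB replicate 2). Abcc4 was higher in NZB:NZB than in BL/6J:NZB livers (+0.66, adjusted p = 0.0258), at a low level of 4.34 ± 0.240 in NZB:NZB against 2.42 ± 0.527 in BL/6J:NZB, and lost its call without any NZB:NZB replicate or without BL/6J:NZB replicate 2 or 3 (0.0595 to 0.104). Ephx1, microsomal epoxide hydrolase, was lower in NZB:C57 than in BL/6J:C57 livers (-0.48, adjusted p = 0.0151, or 0.0527 without NZB:C57 replicate 1) and in NZB:NZB than in BL/6J:NZB hearts (-0.43, adjusted p = 0.00467).

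Some directions in NZB:C57 hearts turned when libraries were scaled to their totals. Scaled to library totals, the median of all genes in NZB:C57 against BL/6J:C57 hearts moved to -0.52, 29 members were called (1 higher, 28 lower; background 11.7% and 63.0%), and Nqo1 (+0.38 as deposited) and Gpx3 (+0.57) turned to -0.20 and -0.01, while G6pdx (+0.54 as deposited) and Hmox1 stayed positive at 0.02 and 0.09. Relative to that median, which largely brings back the scale as deposited and is no separate test, Nqo1 was +0.33, Gpx3 +0.51, G6pdx +0.55 and Hmox1 +0.62. The G6pdx call as deposited was also lost without BL/6J:C57 replicate 2 or 3 or NZB:C57 replicate 3 (adjusted p = 0.0634 to 0.0744, limma) and by DESeq2 (0.0752). Gstp2 was lower in NZB:C57 than in BL/6J:C57 hearts under both scalings (-0.75 as deposited, -1.21 scaled), a call lost by DESeq2 (adjusted p = 0.0617).

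Between the NZB-nuclear genotypes, Gstp1 changed in both tissues and in opposite directions. In livers 4 of 38 members differed between NZB:C57 and NZB:NZB (2 higher, 2 lower; background 8.09%, with 3.65% higher and 4.44% lower). The median was -0.06 over the members and 0.00 over all genes. Gstp1, with 858, 871 and 820 in NZB:C57 livers against 186, 265 and 246 in NZB:NZB livers, was higher (log2 fold change +1.88 ± 0.15, adjusted p = 1.09e-06, limma). Gstm3, with 89.4, 108 and 95.2 in NZB:C57 livers against 237, 376 and 249 in NZB:NZB livers, was lower (-1.52 ± 0.17, adjusted p = 5.09e-05). Neither pair of groups overlapped, and neither call was lost when any 1 of the 6 libraries was left out. Abcc3 was higher (+0.52, adjusted p = 0.0343; 483, 503 and 415 in NZB:C57 against 296, 384 and 301 in NZB:NZB) and Gstm2 lower (-0.54, adjusted p = 0.0466; 57.5, 73.0 and 49.1 in NZB:C57 against 82.9, 102 and 76.1 in NZB:NZB). Abcc3 lost its call without NZB:C57 replicate 1 or 2 or NZB:NZB replicate 1 or 3 (0.101 to 0.151), and Gstm2 without NZB:C57 replicate 1 or 3 or any NZB:NZB replicate (0.0507 to 0.207). Scaled to library totals, the median of all genes moved to -0.22 and 16 members were called (1 higher, 15 lower; background 2.72% and 19.8%), with Gstp1 still higher and Abcc3 at +0.28 without a call (adjusted p = 0.171).

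Several marker lists differed between the same livers, a comparison that shares its libraries with both comparisons of NZB against BL/6J nucleus. Sums over the 15 genes higher in male liver were 10450 to 13942 in NZB:C57 against 3775 to 5440 in NZB:NZB (10 of 15 called higher), and sums over the 15 genes higher in female liver were 122 to 397 in NZB:C57 against 1571 to 2093 in NZB:NZB (14 of 15 called lower, with Cyp2b13 at 0 in all NZB:C57 livers). Endothelial marker sums (12 genes) were 237 to 279 in NZB:C57 against 472 to 544 in NZB:NZB, and stellate and fibroblast marker sums (11 genes) were 159 to 250 in NZB:C57 against 417 to 448 in NZB:NZB. The part of these lists in the Gstp1 and Gstm3 results was not tested.

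In hearts 7 of 36 members differed between NZB:C57 and NZB:NZB as deposited (6 higher, 1 lower; background 15.9%, with 13.0% higher and 2.89% lower). The median was 0.07 over the members and 0.00 over all genes. Gstp1 had 17.4, 17.99 and 17.2 in NZB:C57 hearts against 41.5, 37.8 and 35.8 in NZB:NZB hearts (-1.08 ± 0.09, adjusted p = 1.2e-07, limma), and it stayed lower scaled to library totals (-1.77). Gpx3 had 224, 249 and 268 in NZB:C57 hearts against 123, 157 and 129 in NZB:NZB hearts (+0.86 ± 0.12, adjusted p = 2.68e-05). Sod3 had 56.0, 64.0 and 61.6 in NZB:C57 hearts against 36.9, 34.6 and 35.1 in NZB:NZB hearts (+0.75 ± 0.10, adjusted p = 2.29e-05). For these 3 genes no NZB:C57 heart fell among the NZB:NZB hearts. Nqo1 had 56.5, 48.7 and 56.7 in NZB:C57 against 39.7, 33.4 and 36.8 in NZB:NZB hearts, and Gstm2 had 75.05, 72.7 and 75.1 in NZB:C57 against 55.8, 48.5 and 50.2 in NZB:NZB hearts. Gstm1 had 119, 123 and 115 in NZB:C57 against 87.0, 87.7 and 78.4 in NZB:NZB hearts, and Abcc4 had 18.1, 18.2 and 16.3 in NZB:C57 against 12.1, 14.97 and 10.8 in NZB:NZB hearts. These 4 were also higher without overlap as deposited, with log2 fold changes of +0.55 for Nqo1, +0.52 for Gstm2, +0.49 for Gstm1 and +0.46 for Abcc4, each negative when scaled to library totals. The Abcc4 call was lost without NZB:C57 replicate 1 or 2 or NZB:NZB replicate 3 (adjusted p = 0.053 to 0.0761).

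The higher calls in NZB:C57 hearts were lost or turned when libraries were scaled to their totals. Gpx3, Sod3, Nqo1, Gstm2 and Gstm1 each kept the call in 15 of 16 alternatives. Median-of-ratios size factors, edgeR and DESeq2 were among these 15. Scaled to library totals, the median of all genes moved to -0.64, 28 of the 36 members were called lower and none higher (background 71.8% lower, 5.65% higher), Nqo1, Gstm2, Gstm1 and Abcc4 turned to -0.14, -0.17, -0.20 and -0.21, and Gpx3 and Sod3 stood at +0.16 and +0.06 without a call. Taking off that median largely brings back the scale as deposited, so it is no separate test. All 6 then had the sign as deposited, at +0.80 for Gpx3, +0.71 for Sod3, +0.50 for Nqo1, +0.47 for Gstm2 and +0.44 for Gstm1 and Abcc4. Beside them stand the cardiomyocyte marker sums, 301021 to 310892 in NZB:C57 hearts against 40451 to 42319 in NZB:NZB hearts, the endothelial sums, 1874 to 2147 in NZB:C57 against 1234 to 1367 in NZB:NZB, and the fibroblast sums, 2638 to 2916 in NZB:C57 against 2054 to 2374 in NZB:NZB, whose part in these results was not tested.

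**Figure D4:**
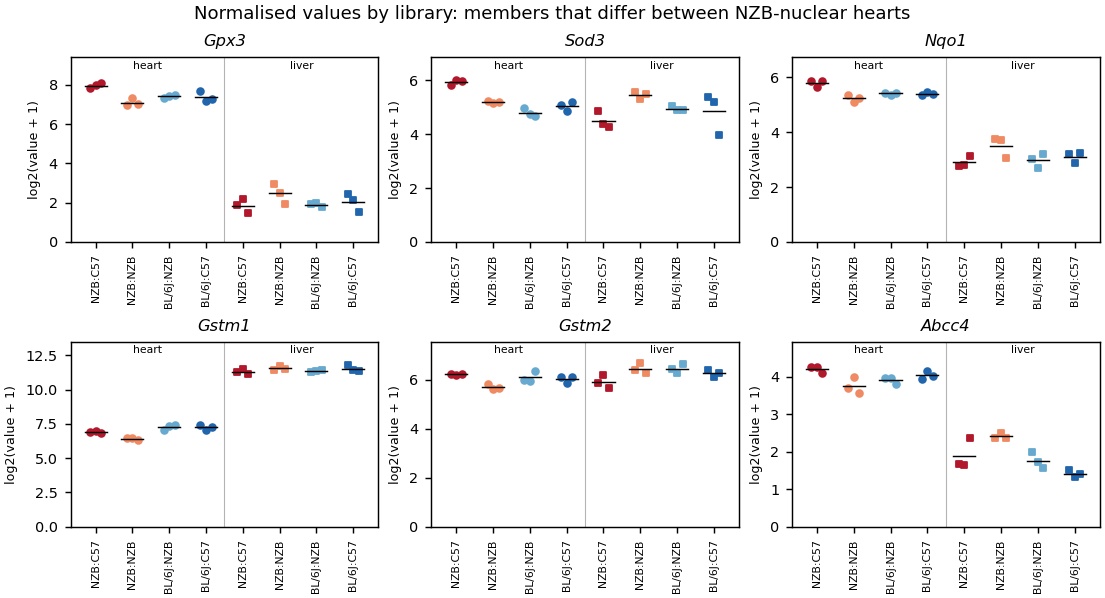
Log2(value + 1) of Gpx3, Sod3, Nqo1, Gstm1, Gstm2 and Abcc4 in each of the 24 libraries, hearts as circles and livers as squares, genotypes in the order NZB:C57, NZB:NZB, BL/6J:NZB and BL/6J:C57, with black lines at the means. The NZB:C57 hearts lie above the NZB:NZB hearts in all 6 panels as deposited, and scaling to library totals turns this for Nqo1, Gstm1, Gstm2 and Abcc4.

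On the BL/6J nucleus no member passed the threshold between the mtDNA types. Between BL/6J:NZB and BL/6J:C57, 0 of 38 members were called in livers by limma (background 0.00760%, all of it higher) and 0 of 36 in hearts (background 0.935%, with 0.427% higher and 0.507% lower). On the recovered reads edgeR and DESeq2 also called 0 in each. At an unadjusted p under 0.05 there were 8 members in livers (9.76% of all genes) and 7 in hearts (17.0% of all genes). The estimates ran from -0.69 ± 0.18 for Gsta1 (13.2, 13.2 and 9.64 in BL/6J:NZB livers against 15.3, 22.8 and 22.4 in BL/6J:C57 livers, adjusted p = 0.303) to +0.34 ± 0.20 for Abcc4 in livers, and from -0.36 ± 0.21 for Gstp2 to +0.39 ± 0.20 for Gsta3 in hearts. With median standard errors of 0.13 and 0.11, these data do not show that the levels are alike. Leaving out BL/6J:C57 liver replicate 3 brought Hmox1 (-1.13) and Gstp2 (-0.87) past the threshold (adjusted p = 0.0462 and 0.0483), and leaving out BL/6J:NZB heart replicate 1 brought Txnrd1 (-0.36, adjusted p = 0.047).

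**Figure D5:**
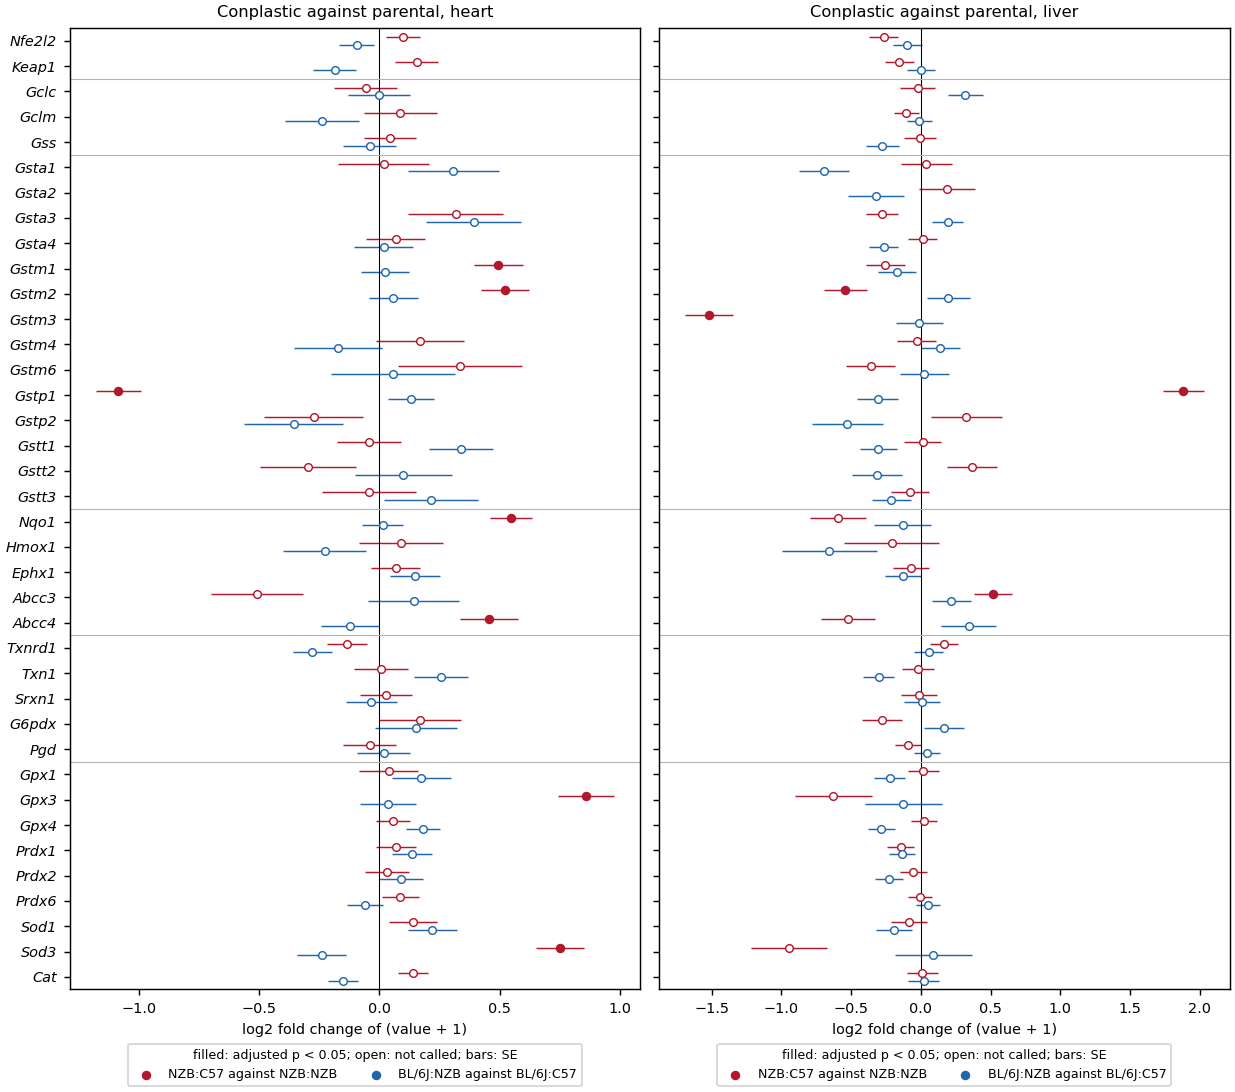
Log2 fold change on log2(value + 1) of each conplastic line against the parental strain of its nucleus, NZB:C57 against NZB:NZB and BL/6J:NZB against BL/6J:C57, in heart (left) and liver (right), with standard errors. Filled points appear for NZB:C57 against NZB:NZB alone; Gstp1 is at -1.08 in heart and +1.88 in liver, and the filled points right of 0 in heart are lower or uncalled when libraries are scaled to their totals.

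Tested directly, the difference between the mtDNA types depended on the nucleus for 2 members in livers (background 2.49%, with 1.82% positive and 0.669% negative). In hearts it did so for 7 (background 11.2%, with 9.81% positive and 1.42% negative). On each nucleus the mtDNA types are those of a conplastic line and its parental strain. Any other difference of that line and an effect of its mtDNA cannot be told apart. The contrast is the difference between NZB and C57 mtDNA on the BL/6J nucleus minus the same difference on the NZB nucleus, and it uses the libraries of the comparisons above. In livers it was +1.57 ± 0.21 for Gstp1 (adjusted p = 0.000438, limma) and -1.53 ± 0.24 for Gstm3 (adjusted p = 0.00199), and in hearts -0.95 ± 0.13 for Gstp1 (adjusted p = 6.96e-05). The other 6 in hearts were Gpx3, Nqo1, Gstm2, Gstm1 and Sod3, which were positive, and Txnrd1, which was negative; scaled to library totals 23 were negative and none positive (background 58.9% and 4.80%), with Gstp1 at -1.61 and Txnrd1 at -1.08 and the median of all genes at -0.60. Without NZB:C57 heart replicate 2 the heart count fell to 4, and without BL/6J:C57 liver replicate 3 the liver count was 5.

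The difference between NZB:C57 and NZB:NZB was not the same in heart and liver for 10 of 38 members (8 positive, 2 negative). The background was 23.9%, with 16.2% positive and 7.66% negative, and the test was an interaction in the fit over 24 libraries. When scaled to library totals, 5 were positive and 16 negative (background 9.46% and 43.1%). Gstp1 differed by -2.96 ± 0.18 (adjusted p = 3.67e-11, limma), Abcc3 by -1.03 ± 0.22 and Sod3 by +1.69 ± 0.32. Sod3 had 27.7, 19.99 and 18.1 in NZB:C57 livers against 46.1, 38.2 and 43.5 in NZB:NZB livers, where it was not called, beside the higher values in NZB:C57 hearts given above. Gstm3, which entered this test through the livers, had 0 or 1 read in each NZB-nuclear heart. Its difference (+1.56 ± 0.24) was called by limma and lost by edgeR (adjusted p = 0.504) and DESeq2 (0.419), and without it 9 members were called. On the BL/6J nucleus 0 of 38 members showed such a difference (background 0.0735%). At an unadjusted p under 0.05 there were 10 (16.7% of all genes), and edgeR called 0 and DESeq2 3. The DESeq2 calls were Txn1 (+0.56), Gstt1 (+0.68) and Gpx4 (+0.44), and leaving out BL/6J:C57 liver replicate 3 brought these 3 and Gsta1 past the threshold in limma (adjusted p = 0.0111 to 0.0271), while leaving out BL/6J:C57 liver replicate 1 brought Gsta1 alone (0.0377).

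Other genes of the same pathways, a list of 75 with 72 in the table, were counted in the same comparisons. With the NZB against the BL/6J nucleus, 24 of 67 tested differed in livers on NZB mtDNA (9 higher, 15 lower; 24.9% of all genes) and 28 of 67 on C57 mtDNA (6 higher, 22 lower; 27.9% of all genes). In hearts the counts were 29 of 71 on NZB mtDNA (9 higher, 20 lower; 29.1% of all genes) and 27 of 71 on C57 mtDNA (11 higher, 16 lower; 35.2% of all genes). Scaled to library totals, the split in livers was 14 higher and 11 lower on NZB mtDNA (18.9% and 8.46% of all genes). On C57 mtDNA it was 6 and 23 in livers (12.1% and 16.2%). In hearts it was 14 and 19 on NZB mtDNA (22.5% and 10.3%), and 2 and 51 on C57 mtDNA (11.7% and 63.0%). Between NZB:C57 and NZB:NZB, 3 were higher and 6 lower in livers (3.65% and 4.44% of all genes), and 8 higher and 2 lower in hearts (13.0% and 2.89%). Scaled to library totals, the split was 2 and 27 in livers (2.72% and 19.8%) and 1 and 61 in hearts (5.65% and 71.8%). Between BL/6J:NZB and BL/6J:C57 none was called in either tissue by limma, with 7 in livers and 8 in hearts at an unadjusted p under 0.05, beside 9.76% and 17.0% of all genes. Abcc2, the canalicular exporter of glutathione conjugates, had 1364 ± 44.9 in NZB:C57 livers against 363 ± 55.2 in NZB:NZB livers (+1.92 ± 0.18, adjusted p = 5.79e-06, limma). Msrb1, a selenium-dependent methionine sulfoxide reductase, had 24.5 ± 2.54 in NZB:NZB hearts against 70.9 ± 4.90 in BL/6J:NZB hearts, and 27.5 ± 2.10 in NZB:C57 hearts against 73.7 ± 5.67 in BL/6J:C57 hearts (-1.50 and -1.39). Mgst1, the microsomal transferase, had 2546 ± 179 in NZB:C57 livers against 5573 ± 839 in BL/6J:C57 livers (-1.12 ± 0.13, adjusted p = 1.65e-05). Ephx2, the soluble epoxide hydrolase, had 522 ± 6.49 in NZB:NZB livers against 1198 ± 86.6 in BL/6J:NZB livers (-1.19 ± 0.12, adjusted p = 5.75e-06).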

How the data were processed

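Liver and heart RNA of 24 libraries was analysed from 1 deposited table. Its values are a signal (read counts normalised by the authors, per the file headers); the tools listed, without role or order, per the submitters' processing notes are RSEM 1.2.3, edgeR (version not given), cutadapt 1.2.1 and Bowtie2 2.0.6, with GRCm38 as build. Whether NZB reads map less well to this C57BL/6J build cannot be told apart from an effect of the nucleus. All values (100%) were whole multiples of 1 constant per library within 0.01 reads, so whole reads were recovered for edgeR 4.0.16 and DESeq2 1.42.0.

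limma 3.58.1 (trend, R 4.3.3) was fitted to log2(value + 1) over genes with at least 1 in at least 3 libraries: 13159 in liver, 13803 in heart, 14968 over both, tested on simulated data first. Fold changes understate changes of low genes. P-values were adjusted by Benjamini-Hochberg over all genes, threshold 0.05, and measure the spread between pools of different animals; liver and heart pools may hold the same animals. NZB:C57 against NZB:NZB shares its libraries with NZB:C57 against BL/6J:C57 and with NZB:NZB against BL/6J:NZB. Alternatives were pseudocounts, filters, scalings, tools, only the libraries compared, a replicate block and leaving out each library. Same-numbered pools of NZB:NZB and BL/6J:NZB livers deviated together (correlations 0.17, 0.14 and 0.15, all over 0.1), and no other comparison met that rule. No label pairs these pools. The main fit has no block, and the fit with the replicate number as a block is given as an alternative. Members and lists were chosen with earlier results of these data known. Any member may be named, and up to 3 other pathway genes per comparison by smallest p. Positions follow GENCODE vM21; copies were sought as shared 31-base words.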

Additional observations from a re-analysis of the deposited data

Results flagged for a closer look

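2 kinds of difference between groups were tested directly as interactions with limma, on log2(value + 1) and with adjusted p over all genes. Groups of 3 pools are too small for a test of single outlying libraries.

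The first is the difference between NZB and C57 mtDNA on the BL/6J nucleus minus the same difference on the NZB nucleus. In livers it was 1.57 for Gstp1 (adjusted p = 0.000438, limma) and -1.53 for Gstm3 (0.00199). In hearts it was -0.95 for Gstp1 (6.96e-05), 0.89 for Gpx3 (0.00108), 0.58 for Gstm2 (0.0112), 0.56 for Nqo1 (0.00443), 0.52 for Gstm1 (0.0244), 0.51 for Sod3 (0.0262) and -0.41 for Txnrd1 (0.0263). Gstp1, Gpx3, Gstm2 and Nqo1 kept their heart calls when any 1 library was left out, and Gstm1, Sod3 and Txnrd1 lost theirs in at least 1 such fit. With libraries scaled to their totals, the heart values were -1.61 for Gstp1 and -1.08 for Txnrd1, both still called, while Gpx3 was at 0.22 without a call (adjusted p = 0.229, limma) and Nqo1, Gstm1, Gstm2 and Sod3 turned negative.

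The second is the difference between C57 and NZB mtDNA on the NZB nucleus in heart minus the same difference in liver. It was -2.96 for Gstp1 (adjusted p = 3.67e-11, limma), -1.03 for Abcc3 (0.00113), 1.69 for Sod3 (0.000307), 1.56 for Gstm3 (2.55e-05), 1.49 for Gpx3 (0.00112), 1.14 for Nqo1 (0.000555), 1.06 for Gstm2 (0.000262), 0.98 for Abcc4 (0.00244), 0.75 for Gstm1 (0.00287) and 0.37 for Nfe2l2 (0.0278). For Gstm3 the NZB-nuclear hearts held 0 or 1 read, and its adjusted p was 0.504 by edgeR and 0.419 by DESeq2 (1.37e-06 to 0.504 over all alternatives). When scaled to library totals, Abcc4 (0.47, adjusted p = 0.0721, limma) and Gstm1 (0.29, 0.147) lost their calls and Nfe2l2 turned to -0.090, while Gpx3 was at 0.93, Nqo1 at 0.65 and Gstm2 at 0.61. Nfe2l2 lost its call without NZB:C57 heart replicate 1 or 3, NZB:C57 liver replicate 3, NZB:NZB heart replicate 3 or NZB:NZB liver replicate 1 or 2 (0.0517 to 0.102), and with only the libraries compared in the fit (0.0586). Both contrasts use NZB:C57 libraries, whose hearts stand apart, and the part of that in these values was not tested.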

How the results depend on the processing

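Of 286 counts of called members under an alternative, 272 stayed within 1.5 times the count as reported, and of 3920 fold changes of called members 3740 kept direction and call, 156 lost the call and 24 changed sign, all 24 under scaling to library totals. Relative to the median of all genes these 24 kept their sign. Taking off this median largely brings back the scale as deposited, so this is no separate support. The cause of the sign changes was not tested.

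Scaled to library totals, NZB:C57 against NZB:NZB called 16 in livers, 28 in hearts (Nqo1 -0.14, Abcc4 -0.21, Gstm1 -0.20, Gstm2 -0.17) and 21 in heart minus liver (Nfe2l2 -0.090). NZB:C57 against BL/6J:C57 hearts called 29 (Nqo1 -0.20, Gpx3 -0.013), and the mtDNA by nucleus contrast in hearts 23 (Nqo1 -0.10, Gstm1 -0.15, Gstm2 -0.086, Sod3 -0.15). Heart against liver turned Nfe2l2 to 0.17 in NZB:C57, 0.26 in NZB:NZB, 0.13 in BL/6J:NZB and 0.20 in BL/6J:C57, Keap1 to 0.07 in NZB:NZB, 0.37 in BL/6J:NZB and 0.63 in BL/6J:C57, Gsta4 to 0.052 in NZB:NZB and 0.13 in BL/6J:NZB, Gstm2 to 0.12 in NZB:NZB and 0.53 in BL/6J:NZB, and Hmox1 to 0.046 and Pgd to 0.17 in NZB:NZB. In BL/6J:NZB against BL/6J:C57, heart minus liver, a pseudocount of 5 called 1 member and DESeq2 3, against 0 as reported.

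Leaving out 1 library gave 0 to 2 calls for BL/6J:NZB against BL/6J:C57 in livers, 0 to 1 in hearts and 0 to 4 for heart minus liver; 2 to 4 for NZB:C57 against NZB:NZB in livers; and 2 to 5 in livers and 4 to 7 in hearts for the mtDNA by nucleus contrast. In all, 26 member calls were lost in at least 1 such fit.

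With the replicate number as a block, NZB:NZB against BL/6J:NZB livers called 11 of 38 (12 without) and lost Cat (adjusted p = 0.0594, limma). Same-numbered pools deviated together there, but no label pairs them. In comparisons that did not meet the rule on correlations, the block lost Gstm2 in NZB:C57 against NZB:NZB livers (0.0687) and Gpx1 in NZB:C57 against BL/6J:C57 livers (0.0595). It also lost Gsta3 and Gpx3 in NZB:NZB against BL/6J:NZB hearts (0.0535 and 0.0732). Fitting without the NZB:C57 libraries, chosen after seeing the data, lost Gpx3 in the same hearts (0.0545). Other calls were lost as well. DESeq2 lost Abcc3 in NZB:NZB against BL/6J:NZB hearts (0.0614) and Gstp2 in heart against liver of BL/6J:NZB (0.0536). Gstm2 in NZB:C57 against NZB:NZB livers was lost by edgeR (0.0671), with only the libraries compared (0.0614), with median-of-ratios size factors (0.0515) and with 2 other filters (0.0519 and 0.0629), and Gpx1 in NZB:C57 against BL/6J:C57 livers by edgeR (0.0539). With totals as the scale, NZB:NZB against BL/6J:NZB lost Txnrd1 (0.164), Gsta3 (0.0978) and Cat (0.162) in livers and Gsta3 (0.059) and Gpx3 (0.119) in hearts. Depth limits genes at a few reads, as Gsta1, Gsta2 and Gstm3 in hearts.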
